A study of Mus musculus with 4 samples.

Results

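The red cell miRNAs mmu-miR-451a, mmu-miR-144-3p, mmu-miR-486a-5p and mmu-miR-486b-5p and the liver miRNA mmu-miR-122-5p were examined in exosomes of C26 and MC38, 2 lines derived from mouse colon carcinoma. They were chosen by name, as miRNAs abundant in blood serum that can report carry-over of serum into cultured material, and all 5 had a row among the 795 mature miRNAs of the deposited table. Vesicles in the medium of each line were precipitated with ExoQuick-TC for 1 library and taken with the Wako Capture exosome ELISA kit for another, which makes 4 libraries, none of them labelled as treated or as medium without cells. Per the labels, both lines were kept in medium free of exosomes, and no label names a serum. The rows of miR-486a-5p and miR-486b-5p were identical in every library, as were those of miR-486a-3p and miR-486b-3p, so each pair is given once, as miR-486a/b, and the 5 rows hold 4 distinct profiles.

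miR-451a and miR-144 are cut from a shared primary transcript that the red cell factor GATA1 switches on, and miR-451a makes up much of the miRNA of mature red cells. miR-451a is also known for being made without Dicer: its precursor is sliced by Ago2, so the mature strand runs on into the loop. miR-486-5p, from an intron of the red cell membrane gene Ank1, is abundant in red cells and in striated muscle. miR-122-5p dominates the miRNA of hepatocytes, where it represses among others Slc7a1, and it enters serum when liver is injured. The mature strands of these miRNAs are conserved between mouse and cattle, so reads cannot be assigned to a species by their names, and whether they came from the cells or from serum was not tested.

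The Mir144 and Mir451a hairpins lie on the plus strand of chromosome 11 (GRCm38, 78073005 to 78073070 and 78073170 to 78073241), with 99 bases between them and in no annotated coding gene. Mir451b lies opposite Mir451a on the minus strand. RefSeq (GRCm38.p6) gave the mature sequence of 2 of the 5 members. Those of miR-451a and miR-144-3p are shown, with miR-144-5p from the other arm of the same hairpin, because these are the strands by which the red cell locus was read in the libraries; capitals mark the seed, bases 2 to 8, and the strands are written 5′ to 3′.
miR-451a: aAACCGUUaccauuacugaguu
miR-144-3p: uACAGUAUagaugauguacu
miR-144-5p: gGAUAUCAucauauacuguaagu
None of these 3 seeds is shared with another of the 1679 mature miRNAs in that RefSeq table. The hairpins show how the strands sit, with the listed mature strands in capitals.
Mir451a: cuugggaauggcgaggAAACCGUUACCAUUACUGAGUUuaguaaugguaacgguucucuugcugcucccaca
Mir144: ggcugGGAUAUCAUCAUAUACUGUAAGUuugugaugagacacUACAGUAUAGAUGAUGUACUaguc
Mature miR-451a takes bases 17 to 38 of its 72-base hairpin, whereas miR-144 has a mature strand on each arm, bases 6 to 28 and 43 to 62 of 66.

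Levels are given as RPM, the reads of a miRNA per 1000000 reads of its library total, and the whole reads behind them were recovered. With ExoQuick the totals were 1356801 reads (C26) and 340643 (MC38), and with Wako 33692 (C26) and 3867 (MC38). A single read was worth 0.737 and 2.94 RPM in the ExoQuick libraries and 29.7 and 259 RPM in the Wako libraries. Where no read was found, levels of up to 2.21 and 8.81 RPM with ExoQuick and of up to 89.0 and 776 RPM with Wako remain possible, taking 3 counts per library as the floor. Intervals are exact 95% intervals and, like these floors, cover counting error only, because several reads can stem from 1 molecule. Both Wako libraries were shallower than the ExoQuick library of their line, so kit and depth cannot be told apart. As a check of the labelled colon carcinoma, 3 of 10 epithelial and colon miRNAs had a row (miR-192-5p, miR-194-5p and miR-203-3p). They summed to 115 and 24 reads in the ExoQuick libraries of C26 and MC38 and to 5 and 4 in their Wako libraries. The others of the 10, among them miR-200a-3p, miR-200b-3p, miR-200c-3p, miR-141-3p and miR-429-3p, had no row under these names. Any other rows of the miR-200 family were not analysed here. Separate cultures are not stated in the labels, so p-values reflect no more than the scatter of these 4 libraries, which may be technical.

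The members were a small part of every library. With miR-486a/b counted once, their sum in C26 was 861 reads with ExoQuick (0.0635%, 0.0593 to 0.0678) and 37 with Wako (0.11%, 0.0773 to 0.151), and in MC38 it was 268 with ExoQuick (0.0787%, 0.0695 to 0.0887) and 4 with Wako (0.103%, 0.0282 to 0.265). By library total, the summed share in C26 was higher with Wako beyond counting error, but the direction turned with other scalings, chosen for the sum after seeing the data: it was 1155 RPM with ExoQuick and 479 with Wako after median-ratio scaling, and 1185 and 568 after TMM scaling. In MC38 the Wako interval holds the ExoQuick share. The make-up differed more than the sum. miR-122-5p was 65.2% of the members' reads in C26 ExoQuick and 94.8% in MC38 ExoQuick, against 5.41% in C26 Wako and 1 of 4 reads in MC38 Wako.

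**Figure D1:**
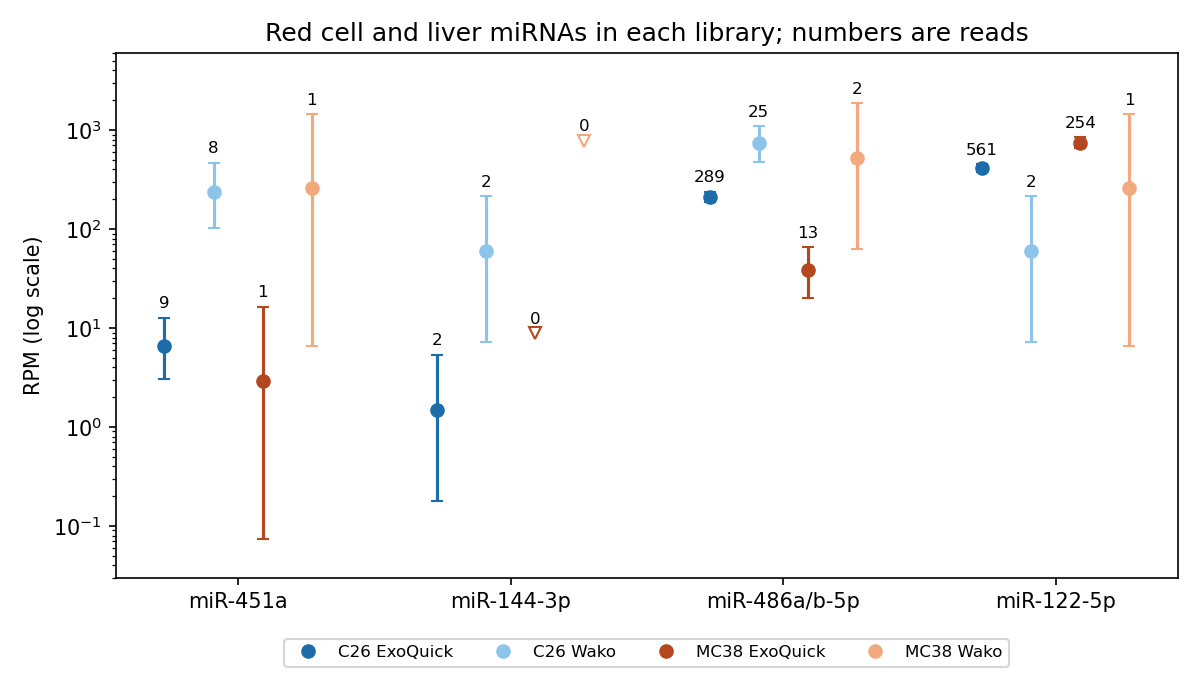
Level of each miRNA in RPM (vertical axis, log scale) for the 4 libraries, with exact 95% intervals of the counting error and the number of reads above each point; open triangles mark libraries with 0 reads at the level that 3 reads would give. By library total, the points of miR-451a and miR-486a/b-5p sit higher in the Wako than in the ExoQuick library of each line, and that of miR-122-5p sits lower. In MC38 the ExoQuick and Wako intervals overlap for each of these miRNAs, and 1 Wako read is worth 259 RPM.

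Of the red cell miRNAs, miR-451a was rare. C26 had 9 reads with ExoQuick (6.63 RPM, 3.03 to 12.6) and 8 with Wako (237 RPM, 103 to 468), and MC38 had 1 with ExoQuick (2.94 RPM, 0.0743 to 16.4) and 1 with Wako (259 RPM, 6.55 to 1440). The C26 libraries did not overlap within counting error, with Wako the higher, and the MC38 libraries did. The same 9 reads in 1356801 would amount to 0.0257 reads at the total of MC38 Wako, so its level in C26 ExoQuick could not have been seen there. By level, miR-451a stood at place 347 of 687 detected miRNAs in C26 ExoQuick and 383 of 475 in MC38 ExoQuick, and at place 166 of 407 and 134 of 188 in the Wako libraries of the same lines. Tied miRNAs share the best place. Both MC38 places are thus those of all miRNAs with 1 read there, the lowest level that was detected.

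miR-144-3p, which is encoded beside miR-451a, had 2 reads in C26 ExoQuick (1.47 RPM), 2 in C26 Wako (59.4 RPM) and 0 in both MC38 libraries. All of these are at or under the 3-count floor, and no fold is given. The other strand of that hairpin, miR-144-5p, had 9 reads with ExoQuick and 7 with Wako in C26, and 2 and 0 in MC38. miR-144-5p thus had as many reads as miR-451a in C26 ExoQuick, and its ratio to miR-144-3p was 4.5 there (0.931 to 42.8) and 3.5 in C26 Wako (0.666 to 34.5), intervals that hold 1.

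miR-486a/b-5p had the most reads of the red cell miRNAs in all 4 libraries, though in MC38 Wako by 2 reads against 1 of miR-451a, within counting error. C26 had 289 reads with ExoQuick (213 RPM, 189 to 239) and 25 with Wako (742 RPM, 480.2 to 1095), and MC38 had 13 with ExoQuick (38.2 RPM, 20.3 to 65.3) and 2 with Wako (517 RPM, 62.6 to 1867). MC38 ExoQuick was the lowest library and overlapped neither C26 library, while the interval of MC38 Wako overlapped those of all 3 others. Mir486 (chromosome 8, GRCm38, 23142555 to 23142682, plus strand) and Mir3107 (23142573 to 23142662, minus strand), which RefSeq lists as mir-486a and mir-486b, overlap on opposite strands within an intron of Ank1. The opposite strand miR-486a/b-3p had 124 reads in C26 ExoQuick and 6 in C26 Wako, and 0 in both MC38 libraries. In C26 it made up 30.02% of the reads of both strands with ExoQuick (25.6 to 34.7) and 19.4% with Wako (7.45 to 37.5), and in MC38 it was 0 of 13 reads with ExoQuick (0 to 24.7%) and 0 of 2 with Wako. The C26 and MC38 ExoQuick intervals for this strand share do not overlap.

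miR-122-5p, the liver miRNA, followed another order. Its hairpin Mir122 (chromosome 18, GRCm38, 65248861 to 65248926, plus strand) lies in an exon of a long noncoding RNA. C26 had 561 reads with ExoQuick (413 RPM, 380 to 449) and 2 with Wako (59.4 RPM, 7.19 to 214), and MC38 had 254 with ExoQuick (746 RPM, 657 to 843) and 1 with Wako (259 RPM, 6.55 to 1440). MC38 ExoQuick was the highest and C26 Wako the lowest, with 3 intervals that do not overlap, while that of MC38 Wako overlaps all of them. It stood at place 98 of 687 detected miRNAs in C26 ExoQuick and 53 of 475 in MC38 ExoQuick, but at 258 of 407 in C26 Wako.

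The study was set up to find how the miRNA cargo of C26 and MC38 exosomes differs. Under ExoQuick, C26 held 5.58 times the miR-486a/b-5p of MC38 (3.21 to 10.6), and MC38 held 1.803 times the miR-122-5p of C26 (1.55 to 2.10). The C26 excess of miR-486a/b-3p was at least 10.4-fold against the 3-count floor of MC38 ExoQuick, and the exact interval of that ratio starts at 8.31. The ratio for miR-451a was 2.26 (0.313 to 99.04), which holds 1. With ExoQuick, 20.1% of 758 miRNAs with reads had an interval above 1 and 15.2% an interval below 1, beside 2 of 5 (the identical miR-486 rows) and 1 of 5 member rows, so ratios of this kind were common. Under Wako, the C26 over MC38 ratio was 1.43 for miR-486a/b-5p (0.358 to 12.5) and 0.918 for miR-451a (0.123 to 40.7), and no difference was detectable at that depth; 7.82% and 4.74% of 422 miRNAs had intervals above and below 1. These ratios compare single libraries and have no replicate check.

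In the fit over all 4 libraries, in which limma tested 390 miRNAs on log2(RPM + 1) with line and kit as terms, 0 of the 5 member rows passed for the line, against 3.33% of all tested (13 miRNAs, of which 2.82% of all tested were C26-high and 0.513% MC38-high, with 46 at unadjusted p under 0.05). None of the 5 had an unadjusted p under 0.05. The log2 difference of C26 against MC38 was 1.49 for miR-486a/b-5p (SE 1.44, limma adjusted p = 0.711), −1.48 for miR-122-5p (SE 1.39, limma adjusted p = 0.711), 0.42 for miR-451a (SE 3.37, limma adjusted p = 0.952) and 3.61 for miR-144-3p (SE 3.27, limma adjusted p = 0.711). On the recovered reads, edgeR's quasi-likelihood test called none of them for the line, nor did DESeq2, which gave no adjusted p for miR-451a and miR-144-3p. The median over the member rows, with both identical miR-486 rows counted, was 1.49, the value of miR-486a/b-5p itself, and that over all tested miRNAs 1.85. Fits that left out 1 library held the line term alone, so line and kit are mixed in them. Without MC38 ExoQuick, the value for miR-486a/b-5p turned to −0.38. That for miR-451a turned to −2.07 without C26 Wako and −2.61 without MC38 ExoQuick. For miR-144-3p the value was 5.92 without C26 ExoQuick and 1.30 without C26 Wako, each time on 2 reads of C26 against none. Such fits leave 1 library in a group, so no p-value is given for them.

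The isolation kits are the second contrast of the design. By library total, miR-486a/b-5p was a larger share of the Wako library and miR-122-5p of the ExoQuick library in each line, and miR-451a was a larger share of the Wako library in C26; with 2 other scalings miR-486a/b-5p in C26 was not higher with Wako. In C26, Wako over ExoQuick was 35.8 for miR-451a (12.02 to 104.5), 3.48 for miR-486a/b-5p (2.22 to 5.25) and 0.144 for miR-122-5p (0.0173 to 0.521). In MC38 it was 13.6 for miR-486a/b-5p (1.48 to 59.9) and 0.347 for miR-122-5p (0.00875 to 1.95), of which the second holds 1; miR-451a, with 1 read in each, is given no fold. Counting every row, 4 of 5 members in C26 and 3 of 5 in MC38 had an interval above 1, which takes in miR-144-3p in C26 and miR-451a in MC38 at 1 or 2 reads, and 1 of 5 in C26 had an interval below 1. Among all miRNAs with reads, 26.5% of 729 in C26 and 19.2% of 485 in MC38 had an interval above 1, and 5.62% and 2.68% an interval below 1.

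**Figure D2:**
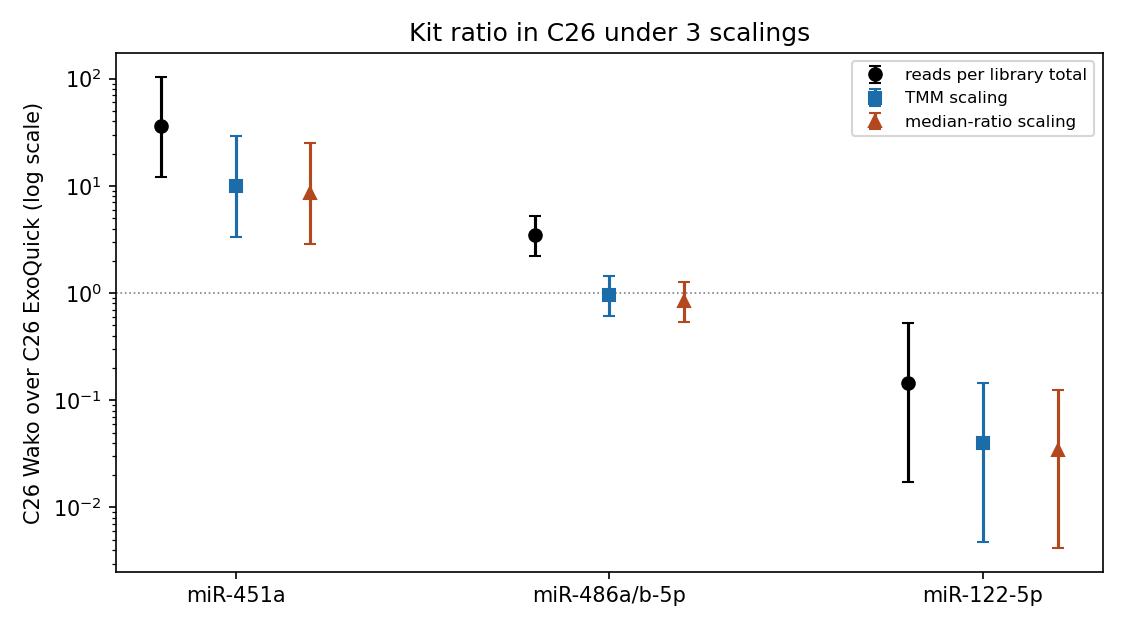
Ratio of C26 Wako to C26 ExoQuick (vertical axis, log scale, dotted line at 1) for 3 miRNAs under 3 scalings of the libraries, with exact 95% intervals of the counting error. The points of miR-451a stay above 1 and those of miR-122-5p below it under each of the 3, whereas miR-486a/b-5p goes from 3.48 to 0.965 with TMM and 0.835 with median-ratio scaling.

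The direction for miR-486a/b-5p in C26 depended on the scaling. With TMM or median-ratio scaling, its C26 ratio fell from 3.48 to 0.965 or 0.835, while miR-451a stood at 9.91 or 8.58 and miR-122-5p at 0.0398 or 0.0344. The median kit difference of all 390 miRNAs moved with the same scalings, from a log2 of 0.44 to −0.82 or −0.65. In the limma fit, 0 of the 5 member rows passed for the kit, against 5.38% of all tested (21, all higher with Wako and 0% higher with ExoQuick, with 53 at unadjusted p under 0.05), and none of the 5 had an unadjusted p under 0.05. The log2 difference of Wako against ExoQuick was 5.50 for miR-451a (SE 3.37, limma adjusted p = 0.529), 2.76 for miR-486a/b-5p (SE 1.44, limma adjusted p = 0.395), 2.31 for miR-144-3p (SE 3.27, limma adjusted p = 0.853) and −2.15 for miR-122-5p (SE 1.39, limma adjusted p = 0.564). The member rows, with both identical miR-486 rows counted, had a median of 2.76, beside 0.44 for all tested. That median is the value of miR-486a/b-5p itself. DESeq2 called miR-122-5p higher with ExoQuick (log2 −4.24, DESeq2 adjusted p = 0.0191), as it did 26 of 390 miRNAs, and edgeR did not (−3.80, edgeR adjusted p = 0.119). Over all alternatives, the adjusted p of miR-122-5p for the kit ran from 0.0191 to 1.0.

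Ratios of reads within a library do not depend on the scaling, and they show the members moving apart. For each miR-486a/b-5p read, C26 had 1.94 miR-122-5p reads with ExoQuick (1.68 to 2.24) and 0.08 with Wako (0.00918 to 0.321), and MC38 had 19.5 with ExoQuick (11.2 to 37.2) and 0.5 with Wako (0.00847 to 9.605). The ExoQuick libraries were the higher in each line, and MC38 ExoQuick was the highest. This ratio was 24.2-fold higher with ExoQuick than with Wako in C26 (5.96 to 212) and 37.3-fold higher in MC38 (1.83 to 2313). The Wako side rests on 2 miR-122-5p reads in C26, and in MC38 on 1 read against 2 of miR-486a/b-5p. All of these are under the 3-count floor. Within ExoQuick the ratio of miR-122-5p to miR-486a/b-5p was 10.1-fold higher in MC38 than in C26 (5.64 to 19.5). Within the red cell miRNAs, the ratio of miR-451a to miR-486a/b-5p was 0.0311 in C26 ExoQuick (0.0141 to 0.0599) and 0.32 in C26 Wako (0.125 to 0.732), a 10.1-fold difference (3.11 to 32.6). For MC38 that ratio was 0.0769 with ExoQuick and 0.5 with Wako, each on 1 read of miR-451a, and the interval of their difference holds 1 (0.0553 to 548).

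**Figure D3:**
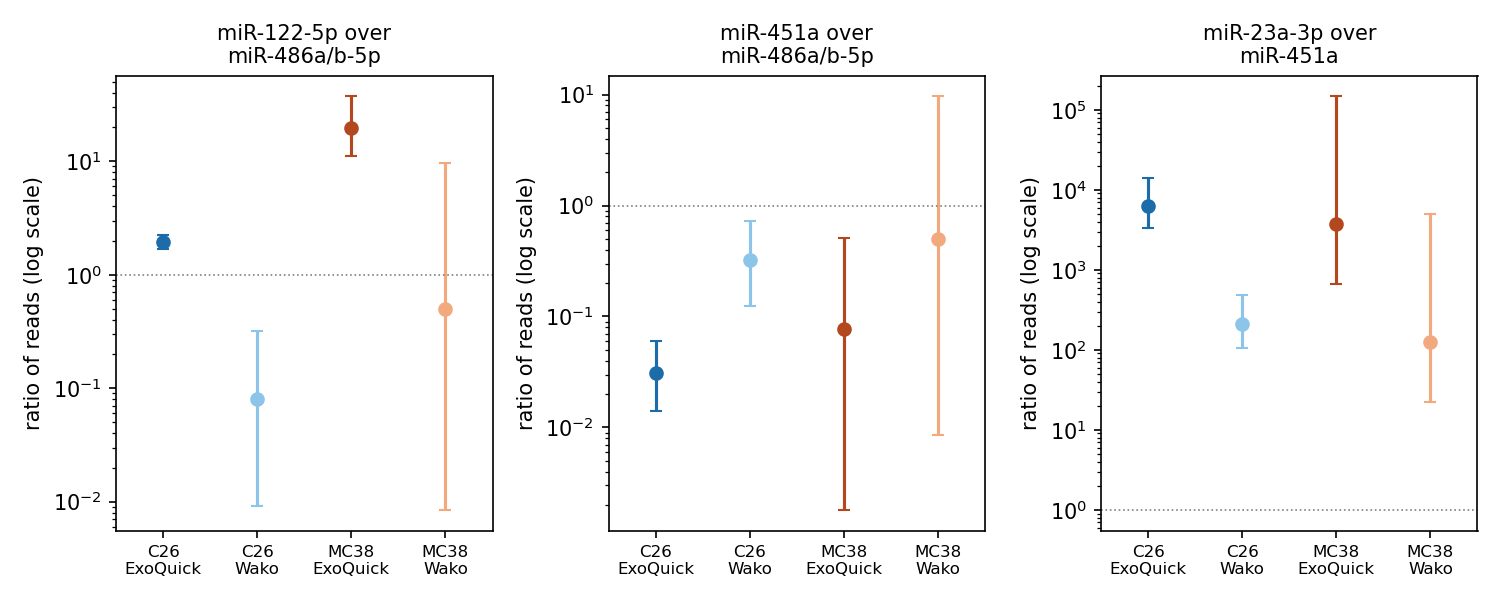
Ratios of reads of 2 miRNAs within each library (vertical axes, log scale, dotted line at 1), with exact 95% intervals of the counting error. miR-122-5p over miR-486a/b-5p lies at 1.94 and 19.5 in the ExoQuick libraries and at 0.08 and 0.5 in the Wako libraries. The points of miR-451a over miR-486a/b-5p lie below 1 in all 4, and miR-23a-3p exceeds miR-451a by 125-fold or more in each. In MC38 Wako, with 1 read of miR-122-5p, 1 of miR-451a and 2 of miR-486a/b-5p, the intervals of the first 2 ratios hold 1.

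The ratio of miR-451a to miR-23a-3p is used in serum as an index of haemolysis, because lysed red cells add miR-451a and leave miR-23a-3p much as it was. Here the ratio is printed the other way up, so a smaller value means more miR-451a for each miR-23a-3p read. No serum limit was applied to these exosomes. miR-23a-3p had 57255 and 3713 reads in the ExoQuick libraries of C26 and MC38 and 1667 and 125 in their Wako libraries. In C26 it exceeded miR-451a 6362-fold with ExoQuick (3351 to 13913) and 208-fold with Wako (106 to 483), and in MC38 3713-fold with ExoQuick (666 to 146695) and 125-fold with Wako (22.03 to 4976). In C26 the ratio was 30.5-fold lower with Wako (10.2 to 89.2), whereas in MC38, on 1 read of miR-451a per library, the interval of the difference holds 1 (0.375 to 2332).

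**Figure D4:**
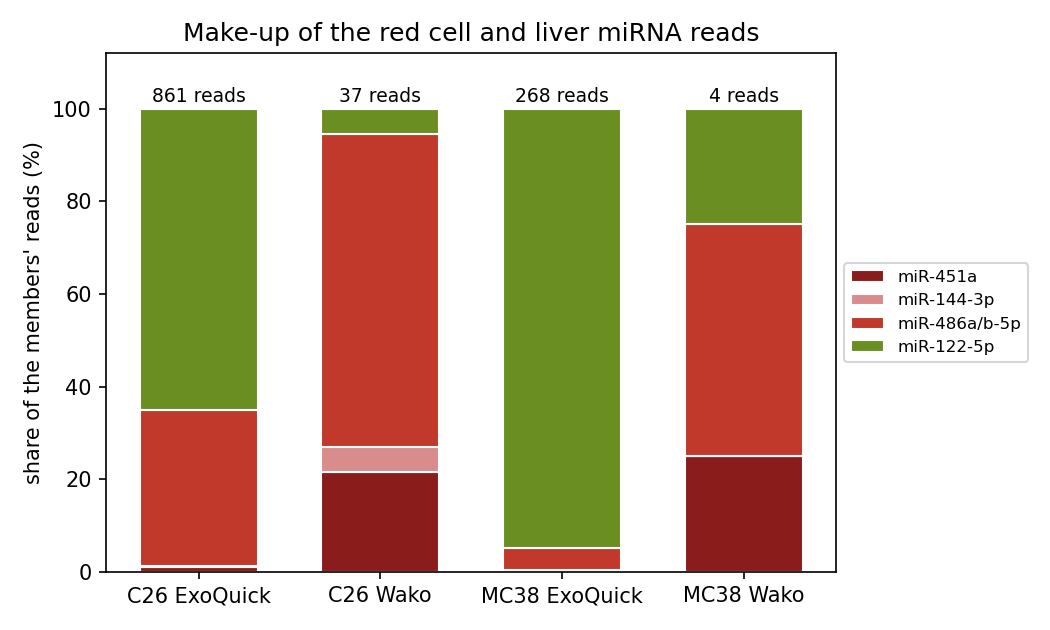
Share of each miRNA in the reads of the red cell and liver miRNAs (vertical axis, percent), with the number of reads above each bar and miR-486a/b-5p counted once. miR-122-5p takes 65.2% and 94.8% in the ExoQuick libraries, and miR-486a/b-5p is the largest part in both Wako libraries, in MC38 Wako with 2 of 4 reads.

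Other miRNAs of blood and liver did not share 1 pattern with the members. Of 7 further miRNAs abundant in red cells, 6 had a row and 4 were tested, and 0 passed for the line or the kit. By library total, miR-16-5p, which is common to most cells, stood at 2145 RPM with ExoQuick and 2137 RPM with Wako in C26. It thus lacked the kit ratio of miR-451a. Its C26 ratio of Wako over ExoQuick was 0.239 with median-ratio and 0.276 with TMM scaling. By library total that ratio was 0.385 for miR-25-3p (0.370 to 0.402) and 0.937 for miR-92a-3p (0.868 to 1.01). In MC38 ExoQuick these 2 miRNAs had 31403 and 2442 reads. miR-96-5p and miR-182-5p stayed at 9 reads or fewer in every library. In C26, miR-183-5p, of a cluster with miR-96 and miR-182, had 182 reads with ExoQuick and 31 with Wako, against 0 in both MC38 libraries. Under ExoQuick this is at least 15.2-fold higher in C26 against the 3-count floor of MC38, and the exact interval of the ratio starts at 12.3. Of the 3 miRNAs of liver and other tissues with a row (miR-192-5p, miR-194-5p and miR-148a-3p), 2 were tested and 0 passed. Because miR-192-5p and miR-194-5p were also counted as epithelial and colon miRNAs above, their reads cannot be assigned to liver. The 3 summed to 81.1 RPM with ExoQuick and 148 with Wako in C26, and to 73.4 and 1034 RPM in MC38, the last on 4 reads, all of miR-194-5p. miR-194-5p was higher with Wako in each line (20.6 and 118.7 RPM in C26, 26.4 and 1034 RPM in MC38, on 28, 4, 9 and 4 reads). For miR-192-5p the values with ExoQuick and Wako were 55.3 and 29.7 RPM in C26 and 38.2 and 0 in MC38. It had 1 read in C26 Wako, and both kit ratios have intervals that hold 1 (0.0134 to 3.08 in C26, 0 to 28.9 in MC38). miR-148a-3p stood at 5.16 and 8.81 RPM with ExoQuick and had 0 reads with Wako, whose floors lie above these levels. Of 7 striated muscle miRNAs, a tissue that also expresses miR-486-5p, miR-206-3p alone had a row, with 6 reads in MC38 ExoQuick and 0 in the other libraries. All 5 white cell and platelet miRNAs had a row. Their sum was 4728 RPM with ExoQuick and 6411 with Wako in C26, and 229 and 6465 RPM in MC38, lowest in MC38 ExoQuick as for miR-486a/b-5p. miR-142a-5p gave most of this sum, with 6219 of 6415 reads in C26 ExoQuick and 12 of 78 in MC38 ExoQuick. Not every one was lower there than in C26 ExoQuick: miR-126a-3p stood at 149.7 RPM in MC38 ExoQuick against 72.2 in C26 ExoQuick. miR-223-3p stood at 20.6 against 7.37 RPM, on 7 and 10 reads, and its C26 over MC38 interval holds 1 (0.123 to 1.11). Both had 0 reads in MC38 Wako, where the 3-count floor of 776 RPM lies above these levels. miR-150-5p had 0 reads in MC38 ExoQuick. Of these 5, miR-142a-5p passed for the line (higher in C26), against 3.33% of all tested. miR-142a-5p and miR-150-5p passed for the kit (higher with Wako), against 5.38%. For miR-142a-5p, C26 over MC38 was 130 with ExoQuick (74.4 to 252) but 0.592 with Wako (0.36 to 1.03). Its ratio of Wako over ExoQuick was 139 in MC38 (64.3 to 315) but 0.635 in C26 (0.514 to 0.775). The part of these 5 miRNAs in the values of the members was not tested.

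The profiles most like each member were found among the 217 miRNAs whose mean reached 100 RPM, by the distance of mean-centred log2(RPM + 1) values over the 4 libraries. Nearest to miR-451a were miR-877-3p (distance 0.46), miR-1981-3p (0.90) and miR-351-5p (1.14). The first has 13 and 11 reads in C26 and 2 in each MC38 library, about as few as miR-451a itself. Nearest to miR-486a/b-5p were miR-92b-3p (0.66), miR-145a-3p (0.74) and miR-1983 (0.90). Nearest to miR-122-5p were miR-130a-3p (0.91), the miRNA with the highest mean of these libraries, miR-130b-3p (1.30) and miR-361-5p (1.33). miR-144-3p had no near profile in this pool, with let-7b-3p (2.48), miR-31-5p (2.63) and miR-1983 (3.07) as the nearest. Its own mean of 15.2 RPM lies below the limit of the pool, so miRNAs as low as miR-144-3p were not compared with it. With 4 libraries these distances describe likeness only.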

How the data were processed

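Per the labels, small RNA of exosomes from C26 and MC38 conditioned medium was sequenced after 2 isolation kits. The authors deposited 1 normalized signal value per mature miRNA and library. DESeq2 is named in the submitters' processing notes, with no version; which aligner, counter, build and miRBase release served is not given in the sources used here. Within every column 100.0% of nonzero values were whole multiples of 1 read of a whole-number library total (tolerance 0.006), and whole reads were recovered on that basis; the deposited signal is called RPM. A read matching several mature miRNAs counts under each of them. No 2 libraries were duplicates (chi-square per degree of freedom at least 9.06).

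limma 3.58.1 (R 4.3.3, mean-variance trend) was fitted to log2(value + 1) for the 390 miRNAs whose mean reached 10 RPM, with line and kit as additive terms and 1 residual degree of freedom; two-sided p-values were adjusted over all 390 by Benjamini-Hochberg, with a threshold of 0.05. Fold changes on this scale understate the change of low miRNAs and depend on the pseudocount where a library is at 0. Exact intervals are Clopper-Pearson for levels and conditional binomial or hypergeometric for ratios (SciPy 1.17.1). The fit was tested on simulated data. Alternatives were other pseudocounts, filters and scalings, a fit with only the term of interest, leaving out each library, edgeR 4.0.16 and DESeq2 1.42.0. The fits that left out a library also held only the term of interest, so line and kit are mixed in them. The 5 members are always named, with the 3 nearest profiles of each and the lists described. The members and lists were chosen with earlier results of these data known.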

Additional observations from a re-analysis of the deposited data

Results flagged for a closer look

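For miR-451a, the difference between C26 and MC38 had opposite signs under the 2 kits, with a log2 (RPM + 1) of 0.95 under ExoQuick and −0.12 under Wako. It rests on 1 read in each MC38 library, both ratios have intervals that hold 1, and the difference between the kits was not tested.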

How the results depend on the processing

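The libraries carry no shared replicate numbers; the fit with both terms already sets the kits against each other within each line, and the fit with only the term of interest does not. For the line, 13 miRNAs passed in limma, and the count was 8 without a filter, 0 with median-ratio scaling, 6 with TMM scaling (5 higher in C26), 0 with only the term of interest, 23 in DESeq2 and 0 to 58 when 1 library was left out (58 without C26 ExoQuick, 43 without C26 Wako, 0 without MC38 ExoQuick or MC38 Wako). For the kit, 21 passed, all higher with Wako, and the count was 0 with median-ratio scaling, 4 with TMM (1 higher and 3 lower with Wako), 10 with quantile normalization (7 and 3), 9 with only the term of interest, 7 in edgeR (6 and 1), 33 in DESeq2 (7 and 26) and 0 to 41 when 1 library was left out (0 without C26 ExoQuick or C26 Wako, 41 without MC38 ExoQuick, 11 without MC38 Wako). The fits without 1 library held only the term of interest and left 1 library in a group. Line and kit are mixed in them, so their counts come from another model than the main fit. What else moved the counts was not tested.

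For the members, too, the fits without 1 library mix line and kit. In them the line difference of miR-451a turned to −2.07 without C26 Wako and −2.61 without MC38 ExoQuick, against 3.44 without MC38 Wako. The line difference of miR-486a/b-5p ran from −0.38 without MC38 ExoQuick to 3.35. For miR-144-3p, leaving out a library gave line values from 1.30 to 5.92, and a kit value of −0.65 without C26 Wako, up to 5.26. miR-122-5p passed for the kit in DESeq2 (−4.24). The kit direction of miR-451a, miR-486a/b-5p and miR-122-5p in the fit was the same under 14 of 14 alternatives each. Among these, the other filters and the fit with only the term of interest could not turn it, because they leave the log2 value of a miRNA unchanged. With median-ratio scaling the levels of miR-486a/b-5p became 388 in C26 ExoQuick and 324 in C26 Wako, and those of miR-122-5p 752 and 936 in C26 and MC38 ExoQuick. The C26 kit ratio became 8.58 (9.91 with TMM) for miR-451a and 0.835 (0.965) for miR-486a/b-5p, and the ExoQuick line ratio of miR-122-5p became 0.804. MC38 Wako, at 259 RPM per read, limits every statement on that library.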
